A study of Caenorhabditis elegans with 9 samples.

Results

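Log2 ratios of H over N are read here as hypoxia over normoxia. The genes described had positive ratios in the hif-1 mutant, the vhl-1 mutant and wild type of C. elegans. They were chosen on the measured values: a gene had to have a mean log2 ratio of H over N of 0.5 or more in each of 3 genotypes, with every present value above 0. Of 7179 named genes tested, 99 (1.38%) met this rule. A further 7 met it and were left out by name, namely F26A3.4, F44E5.4, F44E5.5, hsp-16.21, cest-12, cest-24 and cest-27. Because the rule used all 9 arrays, the responses given below describe these arrays and are not tested, and the size of the set is itself a product of the rule.

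The data are 9 spotted 2-colour arrays of total RNA, 3 for the hif-1 mutant, 3 for the vhl-1 mutant and 3 for wild type. Each array set H RNA, labelled with Cy3, against N RNA that shared its genotype and replicate number and carried Cy5. H is read as hypoxia and N as normoxia from the title of the series. The labels give the genotypes as hif-1, vhl-1 and wt, while alleles, stage of the worms, oxygen level and exposure time are not given there. Each array gave a value for 21296 to 21487 of 21888 spots. Values are given as log2 of H over N after subtracting the median of each array, so that 1 stands for a doubling and positive means more RNA in H. The direction is likely and not stated: it rests on the wording of the titles, N before H, and on the usual channel 2 over channel 1. With the opposite direction all 99 genes would be lower in H, and with another base of the logarithm every value would scale by one factor. All arrays have the same dye orientation, and a spot's dye bias cannot be told apart from its response. As these are whole samples of mixed cells, a change in the number of cells of a type and a change in RNA per cell cannot be told apart. Neither hif-1 nor vhl-1 has a named spot, and no check of the genotypes on the values was made.

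In C. elegans, HIF-1 is the transcription factor that drives the best known part of the response to low oxygen. VHL-1 is part of the ubiquitin ligase that marks HIF-1 for degradation while oxygen is plentiful, so HIF-1 is already stable in vhl-1 mutants at normal oxygen. Other routes that act without HIF-1 include the heat shock response, the unfolded protein responses of the endoplasmic reticulum and mitochondria, and the nuclear receptor NHR-49. F22B5.4, whose induction by hypoxia is known to need HIF-1, is given as a contrast and not as typical of genes outside the set. It averaged 0.21 ± 0.48 in the hif-1 mutant, 0.30 ± 0.38 in the vhl-1 mutant and 2.26 ± 1.21 in wild type (SD, n = 3 each).

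Taken by size, the 99 genes mostly showed a response of under a doubling. The median of their mean was 0.84 in the hif-1 mutant, 0.82 in the vhl-1 mutant and 0.80 in wild type, where the median over all 20858 features tested was 0.02, 0.00 and 0.01. Averaged over the genotypes, the members ran from 0.56 (1.47-fold) to 1.89 (3.70-fold). A mean of 1 or more was reached by 27 of them in the hif-1 mutant, by 31 in the vhl-1 mutant and by 26 in wild type, and by 8 in each genotype. Only T28C12.5 and F52E10.4 reached 1.5 in each.

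**Figure D1:**
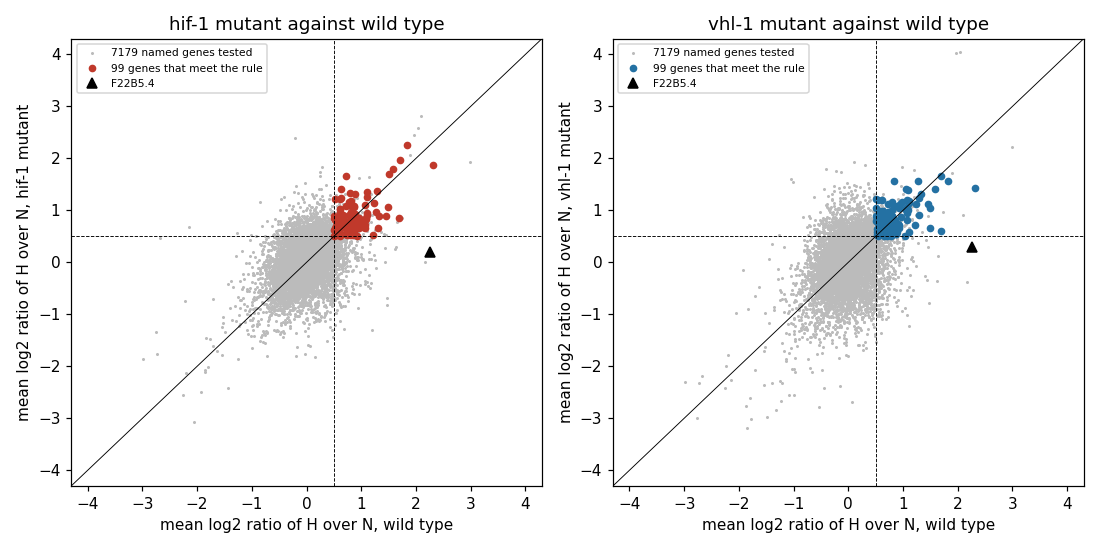
Mean log2 ratio of H over N in the hif-1 mutant (left) and the vhl-1 mutant (right), each on the vertical axis, against wild type on the horizontal axis. Grey points are the 7179 named genes tested, coloured points the 99 genes that meet the rule, the triangle F22B5.4; dashed lines mark 0.5 and the diagonal marks equal means. The coloured genes lie on both sides of the diagonal, and F22B5.4 lies at 2.26 in wild type and below 0.5 in both mutants.

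T28C12.5, annotated as a pseudogene, had the highest mean over the genotypes. Over arrays 1, 2 and 3 it was at 0.24, 3.54 and 2.99 in the hif-1 mutant, at 0.80, 1.75 and 2.15 in the vhl-1 mutant, and at 0.39, 3.34 and 1.77 in wild type. Array 1 was the lowest in each genotype, and the 3 genotypes overlapped. The means were 2.26 ± 1.77, 1.57 ± 0.69 and 1.83 ± 1.48 (SD, n = 3), or 4.79-fold, 2.96-fold and 3.56-fold in the order hif-1 mutant, vhl-1 mutant and wild type. T28C12.5 (chromosome V, 6314176 to 6316467, WBcel235, as are all positions here) lies 464 bases from cest-24, a carboxylesterase family gene left out by name. The spot of cest-24 was at 0.23, 3.20 and 2.75 in the hif-1 mutant, at 0.81, 1.76 and 2.60 in the vhl-1 mutant and at 1.03, 2.89 and 1.78 in wild type. Both spots ranked the 3 arrays of each genotype in the same order. Whether the spots share sequence was not tested.

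T27F6.8 (chromosome I, 12497438 to 12499409) and F52E10.4 (chromosome X, 16285599 to 16293033) were likewise lowest on array 1 of each genotype. T27F6.8 was at 0.39, 2.77 and 2.46 in the hif-1 mutant, at 0.61, 1.58 and 2.07 in the vhl-1 mutant and at 0.67, 3.82 and 2.45 in wild type. F52E10.4 was at 0.19, 2.82 and 2.89 in the hif-1 mutant, at 0.82, 2.01 and 2.16 in the vhl-1 mutant and at 0.52, 2.39 and 2.19 in wild type. In these genes array 1 of each genotype stood far below the other two, so their means carry a wide spread, with SDs of up to 1.58 for T27F6.8 and 1.54 for F52E10.4. Neither was called in any genotype by the fit described below, nor was T28C12.5.

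dpsm-1 (chromosome I, 12551537 to 12552375) was steadier. It was at 0.79, 2.17 and 2.41 in the hif-1 mutant, at 0.70, 1.90 and 1.65 in the vhl-1 mutant and at 1.69, 1.99 and 1.07 in wild type, so every value was above 0.5 and the genotypes overlapped. The means were 1.79 ± 0.87 in the hif-1 mutant, 1.42 ± 0.64 in the vhl-1 mutant and 1.58 ± 0.47 in wild type (SD, n = 3 each), or 3.46-fold, 2.67-fold and 3.00-fold.

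**Figure D2:**
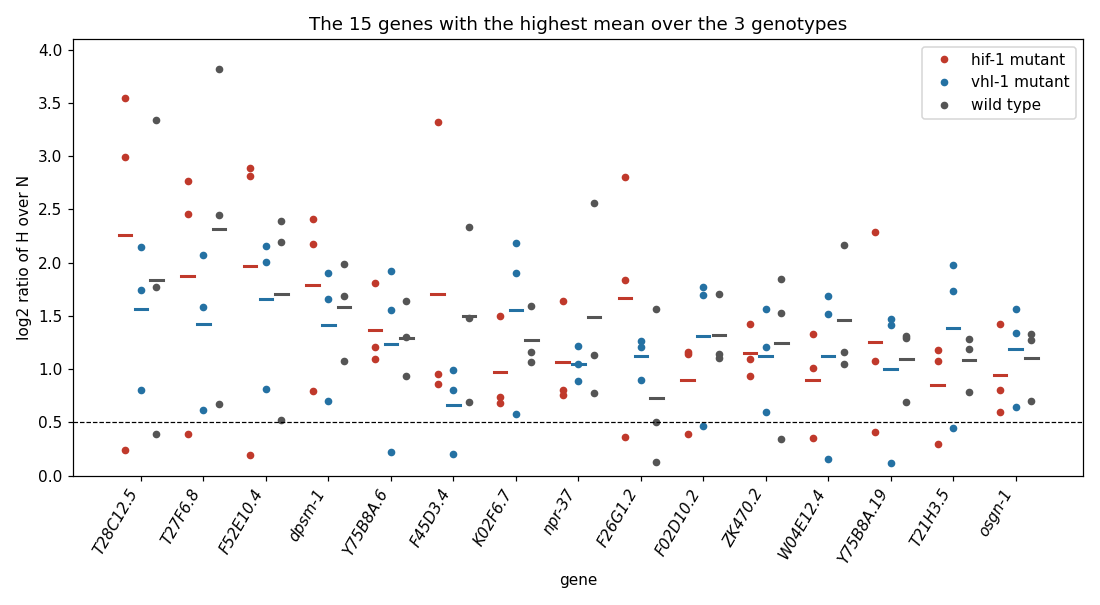
Log2 ratio of H over N (vertical axis) of the 15 genes with the highest mean over the genotypes (horizontal axis); points are single arrays, bars the mean of 3 arrays, and the dashed line is the threshold of 0.5. For T28C12.5, T27F6.8 and F52E10.4 array 1 of the hif-1 mutant lies between 0.19 and 0.39 and the other hif-1 mutant arrays between 2.46 and 3.54, while the genotypes overlap in every gene shown.

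The rule asks for a mean of 0.5 but only for values above 0, and few members were at 0.5 or more throughout. All present values reached 0.5 in 28 members in the hif-1 mutant, in 36 in the vhl-1 mutant and in 43 in wild type, and in 6 on all 9 arrays. These 6 were dpsm-1, K02F6.7, npr-37, osgn-1, K10C3.4 and H14A12.3. npr-37, of the neuropeptide receptor family (chromosome IV, 461199 to 481167), was at 1.64, 0.75 and 0.80 in the hif-1 mutant, at 0.89, 1.05 and 1.21 in the vhl-1 mutant and at 2.56, 1.14 and 0.78 in wild type. Its highest value was that of wild type array 1, and the other 8 lay between 0.75 and 1.64. osgn-1, a homologue of the human oxidative stress induced growth inhibitors (chromosome IV, 4207388 to 4218265), was at 1.42, 0.60 and 0.80 in the hif-1 mutant, at 0.65, 1.34 and 1.57 in the vhl-1 mutant and at 0.70, 1.33 and 1.28 in wild type. K10C3.4 (chromosome I, 9853654 to 9863495) had the narrowest spread of these genes, at 0.85, 0.77 and 0.94 in the hif-1 mutant, at 1.17, 1.06 and 1.15 in the vhl-1 mutant and at 0.80, 1.23 and 0.83 in wild type. Its 3 vhl-1 mutant arrays all lay above its 3 hif-1 mutant arrays. K02F6.7 averaged 0.97 ± 0.46, 1.56 ± 0.86 and 1.27 ± 0.28, and H14A12.3 averaged 0.94 ± 0.32, 0.59 ± 0.11 and 0.88 ± 0.31, in the hif-1 mutant, the vhl-1 mutant and wild type (SD, n = 3 each). At the other end, the lowest of the values was under 0.1 for 11 members in the hif-1 mutant, for 5 in the vhl-1 mutant and for 9 in wild type.

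Of the 99 members 20 carry a gene class name, most of them given for a homologue of known function, and these are described here by role. None of them is on the lists of stress and tissue genes described further on. Only 9 of the 275 genes on those lists had a named spot, so few could be members. Among enzymes of metabolism, pgm-1 encodes a phosphoglucomutase, which interconverts glucose 1-phosphate and glucose 6-phosphate and so links glycogen to glycolysis. It was at 0.67, 1.37 and 1.19 in the hif-1 mutant, at 0.44, 1.28 and 1.51 in the vhl-1 mutant and at 0.83, 0.90 and 0.86 in wild type, an average of 2.11-fold, 2.11-fold and 1.82-fold. The wild type arrays were close together and lay within the range of both mutants. hacl-1, a homologue of the human 2-hydroxyacyl-CoA lyase of fatty acid alpha-oxidation, was at 0.70, 2.27 and 0.71 in the hif-1 mutant, at 0.59, 0.54 and 1.09 in the vhl-1 mutant and at 0.72, 0.73 and 0.37 in wild type. Its hif-1 mutant mean of 1.23 ± 0.91 (SD, n = 3) thus owed its height to array 2. mecr-2, a homologue of the mitochondrial enoyl reductase of fatty acid synthesis, averaged 0.59 ± 0.54 in the hif-1 mutant, 0.60 ± 0.41 in the vhl-1 mutant and 0.74 ± 0.49 in wild type. mmad-1, a homologue of the human cobalamin trafficking protein MMADHC, averaged 0.62 ± 0.54, 0.55 ± 0.68 and 0.79 ± 0.05 in the same order (SD, n = 3 each).

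For proteins that act on mitochondria or in protein turnover, allo-1 gave the highest values. ALLO-1 is the adaptor that marks paternal mitochondria for autophagy in the C. elegans embryo. allo-1 was at 1.89, 1.1 and 1.01 in the hif-1 mutant, at 1.46, 0.41 and 0.78 in the vhl-1 mutant and at 0.65, 1.09 and 0.67 in wild type. Its hif-1 mutant mean of 1.33 ± 0.49 (SD, n = 3) was the highest of the genotypes, but its arrays overlapped those of wild type and of the vhl-1 mutant. noa-1, a homologue of a mitochondrial GTPase, averaged 0.65 ± 0.82 in the hif-1 mutant, 0.84 ± 0.49 in the vhl-1 mutant and 0.53 ± 0.45 in wild type. etc-1, which encodes a HECT-type ubiquitin ligase, averaged 0.59 ± 0.54, 0.54 ± 0.19 and 0.86 ± 0.84 in that order, and its value on wild type array 3 was barely above 0.

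Several named members belong to the secretory and endosomal pathways. sec-16A.2 encodes a homologue of Sec16, which organises the sites where vesicles leave the endoplasmic reticulum, and averaged 0.91 ± 0.60 in the hif-1 mutant, 0.82 ± 0.55 in the vhl-1 mutant and 0.62 ± 0.40 in wild type. algn-3, a homologue of a mannosyltransferase that builds the N-glycan precursor, averaged 0.87 ± 0.72, 0.73 ± 0.29 and 0.57 ± 0.38. famk-1, a kinase of the secretory pathway, averaged 0.86 ± 0.18, 0.79 ± 0.42 and 0.50 ± 0.35. vps-8, a homologue of a subunit of an endosomal tethering complex, averaged 0.79 ± 0.42, 0.52 ± 0.23 and 0.65 ± 0.86 (SD, n = 3 in each case, in the order hif-1 mutant, vhl-1 mutant and wild type). In these 4 genes the hif-1 mutant mean was the highest by a margin smaller than the spread between arrays. The grouping by pathway was made after the members were known and has no test behind it.

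Of the members with roles in the nucleus, tceb-3 is a homologue of elongin A, a transcription elongation factor. It was at 0.50, 1.26 and 0.37 in the hif-1 mutant, at 0.74, 0.80 and 0.76 in the vhl-1 mutant and at 0.53, 0.69 and 0.41 in wild type, so the vhl-1 mutant arrays all lay above the wild type arrays. The difference was only 0.22 (SE 0.32), and 9.25% of features with 9 values were higher in the vhl-1 mutant without overlap. pygo-1, a homologue of the fly Wnt cofactor Pygopus, averaged 1.1 ± 1.02 in the hif-1 mutant, 0.54 ± 0.11 in the vhl-1 mutant and 0.81 ± 0.87 in wild type. hrpa-2, of the hnRNP A family of RNA-binding proteins, averaged 0.92 ± 0.82, 0.84 ± 0.21 and 0.68 ± 0.21 in that order (SD, n = 3 each). In pygo-1 and hrpa-2, array 2 was the highest of the hif-1 mutant and of wild type. The remaining class-named members, bcf-1, tmem-184 and pkhm-2, averaged 1.06, 0.76 and 0.63 over the genotypes.

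**Figure D3:**
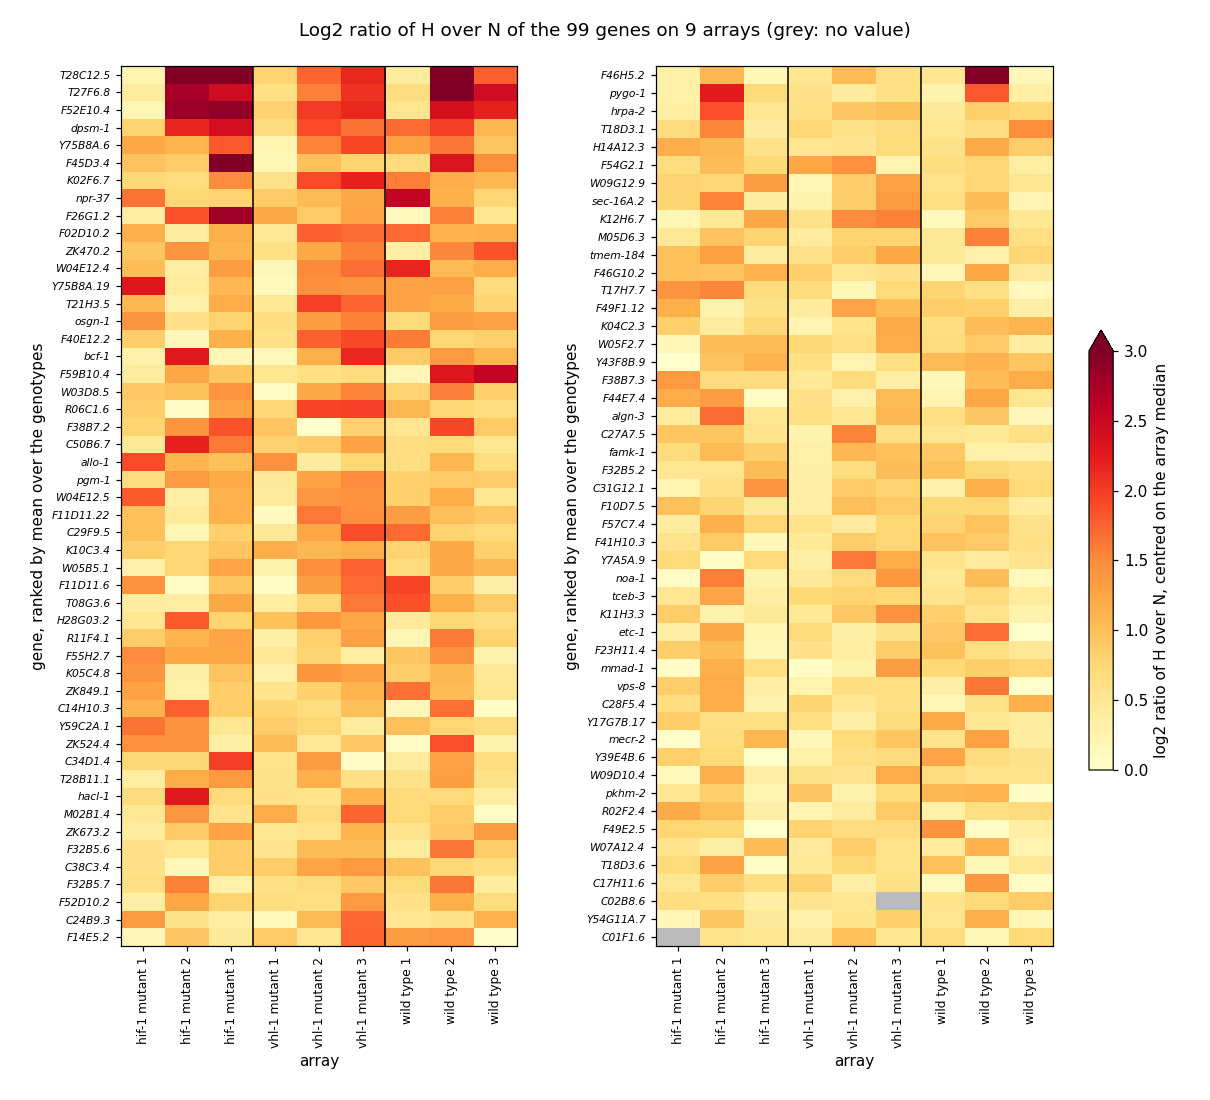
Log2 ratio of H over N of all 99 genes (rows, ranked by the mean over the genotypes, continued in the right panel) on the 9 arrays (columns, hif-1 mutant, vhl-1 mutant and wild type). Darker red is higher, values of 3 or more share the darkest shade, and grey marks the 2 missing values, in C02B8.6 and C01F1.6; vhl-1 mutant array 1 is pale in most rows.

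The order of the arrays within a genotype comes from the same values the rule used and is given as a description. The features set beside the members include those with negative values, whereas the members had to be positive on every array, so the shares are not alike in kind. Within the vhl-1 mutant, array 1 gave the lowest of the 3 values in 66 of the 98 members with all of them (67.3%), where it was lowest in 39.6% of the 19473 features with 9 values, and array 3 gave the highest in 58 (59.2%, against 38.6%). Within wild type, array 2 was highest in 58 of 99 (58.6%, against 33.2%) and array 3 in 13 (13.1%, against 32.3%). Within the hif-1 mutant the members were spread more evenly, with 25, 41 and 32 of 98 highest on arrays 1, 2 and 3. The median member stood at 0.54 on vhl-1 mutant array 1 and at 1.07 on array 3, and at 1.05 on wild type array 2 and 0.65 on array 3. The median absolute deviation of all features, a measure of how wide an array's values are, was 0.458, 0.495 and 0.313 on hif-1 mutant arrays 1, 2 and 3, 0.343, 0.432 and 0.471 on those of the vhl-1 mutant and 0.364, 0.345 and 0.313 on those of wild type. The widest arrays of the mutants, hif-1 mutant array 2 and vhl-1 mutant array 3, were also those most often highest in the members. In wild type the widest was array 1, which was highest in 28.3% and lowest in 39.4% of members. The part of array spread in the pattern was not tested.

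**Figure D4:**
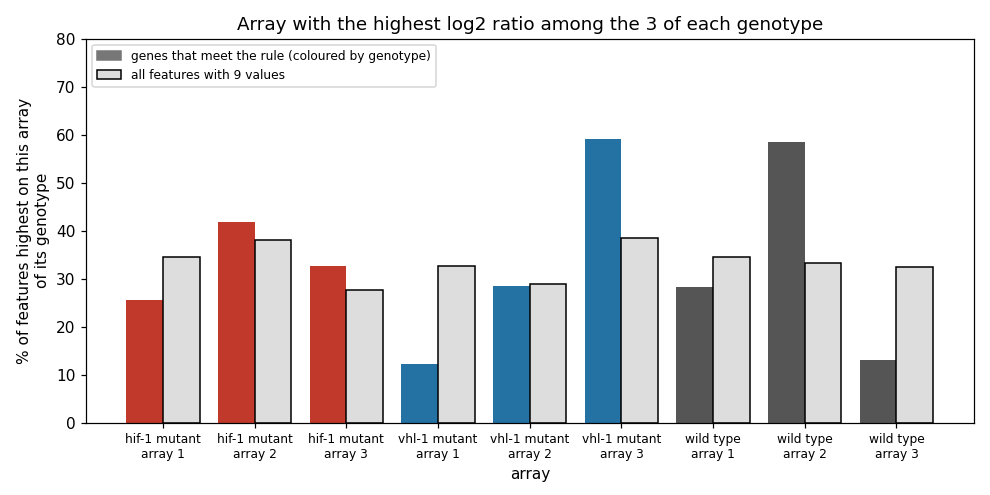
Share of features (vertical axis, percent) whose highest log2 ratio among the 3 arrays of a genotype fell on the array named on the horizontal axis, for the genes that meet the rule (coloured) and for all features with 9 values (light). Wild type array 2 and vhl-1 mutant array 3 stand at 58.6% and 59.2% for the genes that meet the rule, against 33.2% and 38.6% for all features.

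The genotype means of most members lay close together, in genes that the rule had required to be high in each genotype. The range between the highest and the lowest genotype mean had a median of 0.29 and was under 0.5 in 69 of 99. For the median feature the standard error of a difference between a pair of genotypes was 0.376, a measure unlike a range over all genotypes. The hif-1 mutant had the highest mean in 40 members, the vhl-1 mutant in 31 and wild type in 28, and the lowest in 29, 38 and 32. W07A12.4 had the smallest range, with means of 0.63 in the hif-1 mutant, 0.62 in the vhl-1 mutant and 0.59 in wild type. C28F5.4, C31G12.1, F23H11.4 and Y54G11A.7 followed with ranges of 0.07 to 0.09. The arrays behind such close means were not themselves close: W07A12.4 ran from 0.32 to 1.02 in the hif-1 mutant and from 0.26 to 1.11 in wild type.

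At the other end F59B10.4 (chromosome II, 10513813 to 10519117) was at 0.40, 1.24 and 0.94 in the hif-1 mutant, at 0.51, 0.62 and 0.69 in the vhl-1 mutant and at 0.19, 2.31 and 2.56 in wild type. Wild type arrays 2 and 3 were high and array 1 was the lowest of all 9. The difference from wild type was -0.83 for the hif-1 mutant and -1.08 for the vhl-1 mutant (SE 0.52 each). F45D3.4 was at 0.95, 0.86 and 3.32 in the hif-1 mutant, at 0.21, 0.99 and 0.80 in the vhl-1 mutant and at 0.69, 2.33 and 1.48 in wild type, so its high hif-1 mutant mean rested on array 3. F26G1.2 had the largest positive difference of the hif-1 mutant from wild type, 0.94 (SE 0.54), with 0.37, 1.84 and 2.80 in the hif-1 mutant against 0.12, 1.56 and 0.50 in wild type. R06C1.6 had the largest positive difference of the vhl-1 mutant from wild type, 0.72 (SE 0.41), with 0.78, 1.94 and 1.96 in the vhl-1 mutant against 1.08, 0.78 and 0.67 in wild type. T27F6.8, described above, followed F59B10.4 in its margin below wild type in the vhl-1 mutant, at -0.89 (SE 0.75). In each of these comparisons the arrays of the genotypes overlapped.

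The rule sets a floor under every genotype mean and so bounds these differences, and their counts are given as a description. In limma, fitted to all 9 arrays and all 20858 features, 0 members passed an adjusted p of 0.05 for hif-1 mutant against wild type, where 0% of all features did. For the vhl-1 mutant against wild type it was also 0 members, where 0.00479% of all features passed. At an unadjusted p of 0.05 the counts were still 0 of 99 in both comparisons, against 5.94% and 10.1% of all features. Arrays without overlap were likewise few. W09G12.9 alone had all hif-1 mutant arrays above all wild type arrays, where 4.24% of features were, and 0 members were lower, where 4.91% were. C50B6.7, H28G03.2 and tceb-3 were higher in the vhl-1 mutant than in wild type without overlap (9.25% of features) and Y43F8B.9 and C02B8.6 lower (8.63%). Shares without overlap are taken over the 19473 features with all 9 values. C02B8.6 has a missing value and is not among them. For C50B6.7 the values were 0.81, 0.89 and 1.27 in the vhl-1 mutant against 0.67, 0.73 and 0.50 in wild type. Between the mutants, 0 members passed the adjusted test, where 0% of features did, and F55H2.7 was the 1 member at an unadjusted p under 0.05 (6.41% of features), 0.78 higher in the hif-1 mutant than in the vhl-1 mutant (SE 0.34). F55H2.7 and F46G10.2 were higher in the hif-1 mutant than in the vhl-1 mutant without overlap (5.12% of features), and K10C3.4 and C38C3.4 lower (5.89%).

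The same fit gives each response with its error, and its calls for the members restate values the rule had used. A response in H passed an adjusted p of 0.05 in 11 members in the hif-1 mutant, where 0.475% of all features were called higher, in 30 in the vhl-1 mutant, where 4.03% were, and in 7 in wild type, where 0.225% were. By genotype, 59 members were called in none, 33 in 1, 6 in 2 and 1 in all 3. dpsm-1 was the member called in all 3. Y75B8A.6, C50B6.7 and pgm-1 were called in both mutants, and F02D10.2, W04E12.4 and K10C3.4 in both the vhl-1 mutant and wild type. A member's response had a median standard error of 0.27. These counts rest on single arrays: the count in wild type was 0 when wild type array 2 or 3 was left out, 3 when wild type array 1 was left out, 2 without hif-1 mutant array 3 or vhl-1 mutant array 2, 3 without vhl-1 mutant array 3 and 12 without vhl-1 mutant array 1. In the hif-1 mutant it was 0 without hif-1 mutant array 2, 3 without hif-1 mutant array 3, 5 without hif-1 mutant array 1 or vhl-1 mutant array 2, and 6 without vhl-1 mutant array 3 or wild type array 3. The vhl-1 mutant count was 2 without vhl-1 mutant array 2 or 3 and 47 without hif-1 mutant array 2.

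Just inside the threshold were Y7A5A.9, F38B7.3, K12H6.7, Y43F8B.9 and famk-1, whose lowest genotype mean lay between 0.50 and 0.505. Just outside it were gtf-2H2C, M04F3.5, Y43E12A.2, Y41C4A.32 and T09F3.2, with every present value above 0 and a lowest genotype mean between 0.490 and 0.497. gtf-2H2C, a homologue of a subunit of the general transcription factor TFIIH, averaged 0.67 ± 0.15 in the hif-1 mutant, 0.50 ± 0.42 in the vhl-1 mutant and 0.62 ± 0.18 in wild type (SD, n = 3 each). The members nearest the threshold and the genes just below it thus differed by less than the spread between arrays. A threshold of 0.4 gave 140 genes, 0.6 gave 61 and 1 gave 8.

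Replicate spots gave a view of how well a single spot stood for its gene. Of the members 90 had 1 spot, 8 had 2 and T18D3.6 had 3, and the spots of a gene were averaged before the rule was applied. Of the 19 spots of the 9 genes with several, 11 met the rule alone, and in 2 genes, algn-3 and F23H11.4, every spot did. The spots of K12H6.7 had their means at 0.83 and 0.44 in the hif-1 mutant, at 1.21 and 1.21 in the vhl-1 mutant, and at 0.67 and 0.34 in wild type. They matched in the vhl-1 mutant, and the second fell under the threshold in the other genotypes. bcf-1 had its spot means at 1.12 and 0.71 in the hif-1 mutant, at 0.96 and 1.34 in the vhl-1 mutant, and at 1.49 and 0.74 in wild type, and the order of its spots turned round in the vhl-1 mutant. T18D3.6 ran from 0.66 to 0.74 over its spots in the hif-1 mutant, from 0.24 to 1.00 in the vhl-1 mutant and from 0.33 to 0.71 in wild type. For the 90 members with 1 spot no such check exists.

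**Figure D5:**
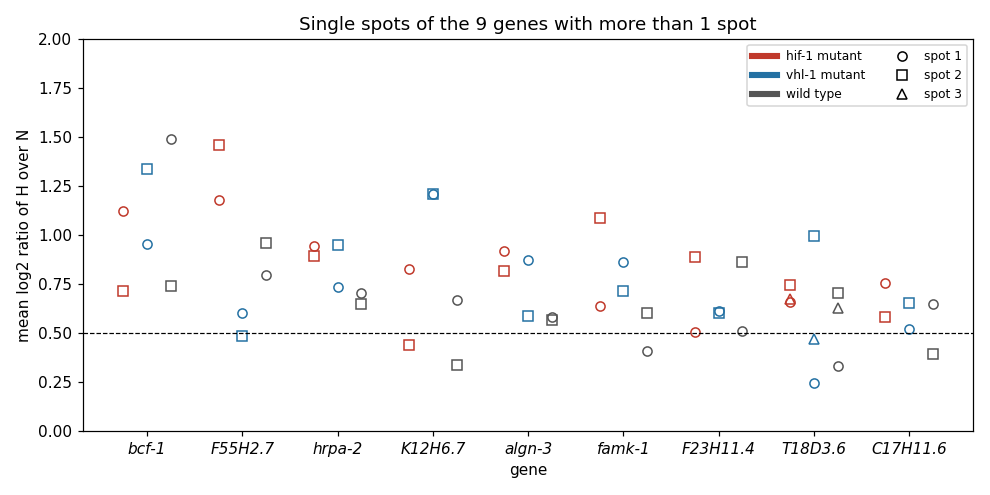
Mean log2 ratio of H over N on the arrays of a genotype with a value (vertical axis) for each single spot of the 9 genes with more than 1 spot (horizontal axis), by genotype (colour) and spot (shape); the dashed line is the threshold of 0.5. Every spot mean is above 0, and 8 of the 19 spots do not meet the rule alone.

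Apart from leaving out the mitochondrial genome and the named classes, the rule did not use position, kind or size of the genes. The named genes tested, set beside the members here, still include genes of the classes left out. The members lay on all 6 chromosomes: 13 on I, 21 on II, 14 on III, 9 on IV, 20 on V and 22 on X. On X this was 22.2% of members, where 16.5% of the named genes tested lay, and on IV 9.09%, where 15.8% lay. In 96 cases the gene is annotated as protein-coding and in 3 as a pseudogene, namely T28C12.5, F40E12.2 and C28F5.4 (3.03%, against 6.81% of the named genes tested). Spots of pseudogenes may also bind RNA of related genes, and their values are uncertain to that extent. The median span of the member genes was 3213 bases, against 1915 bases over the named genes tested. The span of 27 members (27.3%) overlapped that of another protein-coding gene or pseudogene, against 25.7% of named genes, and a spot in such a stretch may not tell the genes apart.

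A few members were neighbours. With at most 4 genes between them, 13 members formed 7 pairs. Such pairs were not counted over all named genes, so no share stands beside this count. F32B5.6 and F32B5.7 (chromosome I, 2668160 to 2682797) were 501 bases apart, with F32B5.2 14601 bases further on. Their means lay at 0.66, 0.83 and 0.68 in the hif-1 mutant, at 0.87, 0.74 and 0.67 in the vhl-1 mutant and at 0.97, 0.91 and 0.80 in wild type, in the order F32B5.6, F32B5.7 and F32B5.2. W04E12.4 and W04E12.5 (chromosome V, 19743642 to 19748540) were 398 bases apart. W04E12.4 was at 1.01, 0.35 and 1.33 in the hif-1 mutant, at 0.15, 1.52 and 1.68 in the vhl-1 mutant and at 2.17, 1.05 and 1.16 in wild type. W04E12.5 was at 1.80, 0.34 and 1.11 in the hif-1 mutant, at 0.42, 1.40 and 1.43 in the vhl-1 mutant and at 0.83, 1.18 and 0.50 in wild type. Both were lowest on array 2 of the hif-1 mutant and on array 1 of the vhl-1 mutant, and they differed in wild type. Those arrays were the lowest of their genotype in 32.7% and 67.3% of members, so the shared order is not particular to this pair. H28G03.2 and hrpa-2 (chromosome X, 5205820 to 5219095) were 130 bases apart, and the other pairs were F38B7.2 with F38B7.3, T18D3.6 with T18D3.1 and pkhm-2 with famk-1. A further 76 genes directly next to a member were measured and are no members. Of these, cest-24 beside T28C12.5, F44E7.3, K12H6.6 and R11F4.2 had every present value above 0 (5.26%). Over all named genes tested, members included, the share was 3.83%.

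Lists of genes for the routes named above had few named spots. Of 275 genes on 16 lists for the HIF pathway, heat shock and chaperones, stress of the endoplasmic reticulum and mitochondria, detoxification, lipid and sugar metabolism, protein turnover, insulin signalling, immunity and tissues, 9 had a named spot and 0 were members. The lists for heat shock and chaperones, the unfolded protein response of the endoplasmic reticulum, oxidative stress, NHR-49, glycolysis, autophagy, the proteasome, immunity, intestine, muscle, neurons and germ line had no named spot. Heat shock genes outside that list were measured and met the rule, but were left out by name. F44E5.4, which encodes a chaperone of the HSP70 family, averaged 2.45 ± 1.59 in the hif-1 mutant, 4.03 ± 0.93 in the vhl-1 mutant and 1.96 ± 1.07 in wild type. Its neighbour F44E5.5, of the same family, averaged 2.59 ± 1.47, 4.06 ± 1.09 and 2.04 ± 1.13, and the small heat shock gene hsp-16.21 averaged 2.82 ± 0.65, 0.91 ± 0.68 and 2.10 ± 1.41 in that order (SD, n = 3 each). F44E5.4 and F44E5.5 are close copies, and their spots may not tell them apart. F22B5.4 was the 1 measured gene of the HIF list and was called higher in wild type alone. The 5 measured genes of insulin signalling, daf-16, age-1, akt-1, akt-2 and pdk-1, had a median of 0.04 in the hif-1 mutant, 0.58 in the vhl-1 mutant and 0.40 in wild type, and 0 were called in either direction. lonp-1, the mitochondrial Lon protease, was at -0.23 in the hif-1 mutant, 0.63 in the vhl-1 mutant and 0.25 in wild type and was not called. The 2 measured genes of the cuticle list, dpy-7 and col-19, had a median of 0.62 in the hif-1 mutant, 0.19 in the vhl-1 mutant and -0.10 in wild type, with 0 calls.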

How the data were processed

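The deposited values are 1 log2 ratio per spot and array. Per the labels, channel 1 (Cy3) held H and channel 2 (Cy5) held N; base and direction of the ratio, image analysis and normalisation are not given there. Array medians ran from -0.062 to 0.061. Cells marked null (3303) and empty cells (1156) were missing. Spot intensities were not used, so signal over background is unknown. Of 21888 spots, 7774 had 1 gene name in the platform annotation, 0 had several and 14114 had none. Names were updated through gene identifiers of the WBcel235 assembly, which matched 7741 spots (7200 names). The sign was turned, each array was centred on its median and spots of a gene were averaged. Features with at least 2 values per genotype were kept, 7179 genes and 13679 unnamed spots. The rule left out F44E5.4, F44E5.5, F26A3.4, the hsp-16, cest, pals, idpa, idpb, idpc, idpp, nlp and eif classes and the mitochondrial genome; the genes left out above are those of them that met the rest of it.

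limma 3.58.1 in R 4.3.3 (lmFit and eBayes, 1 mean per genotype, 6 residual degrees of freedom) was fitted to all features, with p-values adjusted by Benjamini and Hochberg; it was checked on simulated data. Members, lists and tests were chosen with earlier results of these data known. Genes were named by rank, range, nearness to the threshold, calls, spots and class names; members named for neighbours, overlap or lack of overlap were chosen after their values were seen. A planned search for promoter motifs was not run, as no sequence was used here. The labels do not say whether replicates were separate cultures, so the spread may be technical.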

Additional observations from a re-analysis of the deposited data

How the results depend on the processing

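Print runs here are stretches of unbroken spot numbers, inferred from gaps in the numbering and not from a label. The set was recomputed with values as deposited, arrays scaled to one spread, print runs centred and spots combined by their median. It was also recomputed on features with all 9 values, and with each array left out. It then held 83 to 141 genes, 83 without wild type array 2 and 141 without wild type array 3. Of the 99 members, 38 met the rule in all 14 of these settings, dpsm-1, npr-37, osgn-1, pgm-1 and allo-1 among them, and 73 in at least 12. Centring print runs kept 70 and added 25. A threshold of 0.6 gave 61, 1 gave 8, and leaving out the condition on signs gave 149. With 1 array left out, the members' median response ran from 0.77 to 0.86 in the hif-1 mutant, 0.68 to 0.90 in the vhl-1 mutant and 0.67 to 0.88 in wild type; in the alternatives without an array left out it moved by less than the SD between arrays. Members called in the hif-1 mutant were 0 with scaled arrays, 6 with print runs centred, 2 with named genes alone and 0 with only the arrays compared, and 0 to 9 with 1 array left out. In the vhl-1 mutant they were 17 with scaled arrays, 44 with print runs centred, 20 with named genes alone and 44 with only the arrays compared, and 2 to 47 with 1 left out. In wild type they were 25 with scaled arrays, 0 with named genes alone, 12 with only the arrays compared and 0 to 12 with 1 left out. The causes were not tested. Members called for a difference from wild type stayed at 0 in all alternatives run. Robust eBayes changed no count of members called. With the replicate number as a block, 15 members were called in the hif-1 mutant, 28 in the vhl-1 mutant and 7 in wild type. The labels do not say whether arrays of one number share a batch, and this was not tested. Deviations of same-numbered arrays correlated at -0.20 to 0.27 over 9 pairs, and at -0.26 to 0.27 over 18 pairs of other numbers. The 3 arrays per genotype and unknown spot brightness limit the precision.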

Other observations

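Unnamed spots met the same rule more often than named genes. Of 13679 unnamed spots tested, 332 (2.43%) had a mean of 0.5 or more in each genotype and every present value above 0, against 99 named genes and the 7 left out by name among 7179. These spots carry no gene name in the annotation used and are not described further.

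The mirrored rule, a mean of -0.5 or less in each genotype with every present value below 0, was met by 97 named genes after the same exclusions, against the 99 with positive values. Every present value was above 0 in 275 named genes and below 0 in 288.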
